A study of Drosophila melanogaster with 6 samples.

Results

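Long noncoding RNA (lncRNA) genes are described here as they were expressed in adult flight muscles of Drosophila melanogaster with and without knockdown of M1BP. The genes were taken by 2 criteria, a symbol that begins with "lncRNA:" in the deposited table of gene symbols and at least 10 raw counts in each of the 6 samples. This gave 91 genes of the 1903 lncRNA genes and of the 17494 genes of all kinds in the count table. Another 1133 lncRNA genes had 0 counts in all 6 samples. The genes were thus chosen by their raw counts, and that they are expressed is the rule and not a result. All 91 are noncoding in the Ensembl annotation of release 6 of the genome, and the prefix is left out of their names below.

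The samples were 3 of genotype M1BP RNAi, in which Mef2-GAL4 drives a hairpin RNA against M1BP, and 3 of genotype WT, the cross of Mef2-GAL4 to w1888. Both groups carry Mef2-GAL4, a driver that the study describes as muscle-specific and active through all stages of muscle formation. Each sample was polyA RNA from the indirect flight muscles, dissected by hand, of 30 females aged 2 days. Only 1 RNAi line enters, and the knockdown and the genetic background of the RNAi stock cannot be told apart in this design. M1BP, a transcription factor that binds the core promoter element Motif 1, had 49.5, 50.1 and 52.0 normalised counts in M1BP RNAi samples 1 to 3, against 149, 123 and 119 in WT samples 1 to 3. It fell by 1.36 on the log2 scale (edgeR's quasi-likelihood test, Benjamini-Hochberg adjusted p = 3.36e-04), and with any 1 sample left out its adjusted p lay above 0.001, at up to 0.00228.

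Total counts were between 37908823 and 64768186 in M1BP RNAi and between 45132859 and 64871987 in WT. Transcripts of the mitochondrial genome took 54.0% to 59.4% of them in M1BP RNAi and 71.5% to 76.3% in WT, which makes the scaling of the nuclear genes matter. Normalised counts are counts divided by the TMM-scaled library size, on a common scale for the 6 samples. Marker genes of flight muscle summed to 1349729.9 to 1908755 normalised counts in M1BP RNAi and 1105709 to 1180432 in WT, far above the lists of other tissues. Markers of fat body summed to 28356 to 40423 in M1BP RNAi and 55209 to 91406 in WT. Markers of blood cells summed to 1733 to 2348 in M1BP RNAi and 3175 to 3796 in WT, those of nerve and glia to 1941 to 2387 in M1BP RNAi and 3659 to 4809 in WT, and those of trachea to 277 to 507 in M1BP RNAi and 652 to 673 in WT. These 4 lists were thus lower in every M1BP RNAi sample than in every WT sample. Of their 25 tested genes, 1 was higher and 3 were lower at the thresholds given below, beside 11.0% higher and 6.58% lower among all genes tested. Ovary markers summed to 170.1 in M1BP RNAi sample 1 and to at most 7.96 in each other sample, and gut markers overlapped between the groups. In bulk samples, fewer cells of a type and less RNA per cell cannot be told apart.

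An lncRNA is a transcript without a long open reading frame. Some lncRNAs act where they are made, on the genes beside them. Others act elsewhere in the nucleus, as in the omega speckles that the Drosophila Hsromega RNA organises. Many lncRNA genes lie inside, against or directly beside protein-coding genes, so a count for the lncRNA can hold reads of its neighbour. Libraries from polyA RNA, as here, show only those lncRNAs that carry a poly(A) tail.

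The 91 genes differed widely in level. Together they took 0.571%, 0.701% and 0.685% of the nuclear counts in M1BP RNAi samples 1 to 3, against 1.04%, 1.12% and 0.976% in WT samples 1 to 3. The share was therefore lower in every M1BP RNAi sample. The pair CR42862 and CR31781 alone made up 72.4% to 74.1% of the counts of the 91 genes in M1BP RNAi and 79.3% to 80.6% in WT. Per kilobase of counted length, the median of the 91 genes was 74.7 normalised counts, beside 84.7 for all 9276 genes tested. The range ran from 3.20 normalised counts per kilobase for CR43650 to 15783 for CR31781.

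CR31781 (FBgn0051781, chromosome 2L from 16869346 to 16878300, plus strand) averaged 12786 normalised counts per kilobase in M1BP RNAi and 18780 in WT. Its normalised counts were 25943, 39725 and 37092 in M1BP RNAi and 48129, 50627 and 52179 in WT. All M1BP RNAi samples lay below all WT samples, but the log2 fold change of −0.55 (standard error 0.18) did not pass the test (adjusted p = 0.0285). CR42862 (FBgn0262109, chromosome 3L from 224106 to 230964, plus strand) had 48354, 50196 and 47181 normalised counts in M1BP RNAi, against 105344, 97025 and 85160 in WT. This gene was 1.97-fold lower in M1BP RNAi (log2 fold change −0.98, standard error 0.13, adjusted p = 6.13e-04). It shares 246 of its 5485 bases with CG33229, whose log2 fold change was −1.03 and did not pass (adjusted p = 0.00171).

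The other lncRNA genes with the most counts per kilobase were CR42491, CR34335 and CR44417. CR42491 (FBgn0259993, chromosome X from 762615 to 763810, minus strand) is described below with RpL22, with which it shares exons. CR34335 (FBgn0267910, chromosome X from 3545750 to 3546110, minus strand) had 2637, 1493 and 1254 normalised counts in M1BP RNAi, against 596, 637 and 854 in WT. Its groups did not overlap, but the 3 M1BP RNAi samples were far apart, and a log2 fold change of 1.36 (standard error 0.29) gave an adjusted p of 0.00526. CR44417 (FBgn0265590, chromosome 2R from 17869027 to 17869857, plus strand) had 1363, 1608 and 1524 normalised counts in M1BP RNAi and 2326, 2235 and 1815 in WT, with a log2 fold change of −0.50 (adjusted p = 0.0161). It overlaps the body of Mapmodulin, on the other strand and outside its exons, and Mapmodulin itself rose, to 939 ± 36.6 normalised counts in M1BP RNAi against 496 ± 64.0 in WT (SD, n = 3 each, log2 fold change 0.92, adjusted p = 6.64e-04).

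To find which lncRNA genes changed upon M1BP RNAi, edgeR's quasi-likelihood test was run over all 9276 genes with enough counts, and a gene was called differentially expressed if it changed by 1.5-fold or more with an adjusted p no higher than 0.001. Of the 91 lncRNA genes, 16 (17.6%) passed, 4 of them higher and 12 lower in M1BP RNAi. Among all genes tested, 17.5% passed, 11.0% higher and 6.58% lower. The share of lncRNA genes that changed was thus near that of all genes, with more lower than higher calls under this minimum. Of the 55 tested lncRNA genes outside the minimum, 9 (16.4%) were higher and 3 (5.45%) lower. Some of those 55 entered the test only through the group where they were high. Among the 7933 protein-coding genes that meet the same minimum of counts, 18.5% passed, 11.5% higher and 7.03% lower. Normalised counts did not overlap between the groups for 66 of the 91 genes, 18 higher and 48 lower in M1BP RNAi, beside 64.2% of all genes tested, 33.1% higher and 31.1% lower. An adjusted p of at most 0.05, with no fold required, was reached by 57 of the 91 genes and by 56.2% of all genes. DESeq2 called 33 lncRNA genes, 12 higher and 21 lower, beside 27.0% of its genes, and edgeR without TMM factors called 19, of which 14 were higher and 5 lower, beside 29.2%.

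**Figure D1:**
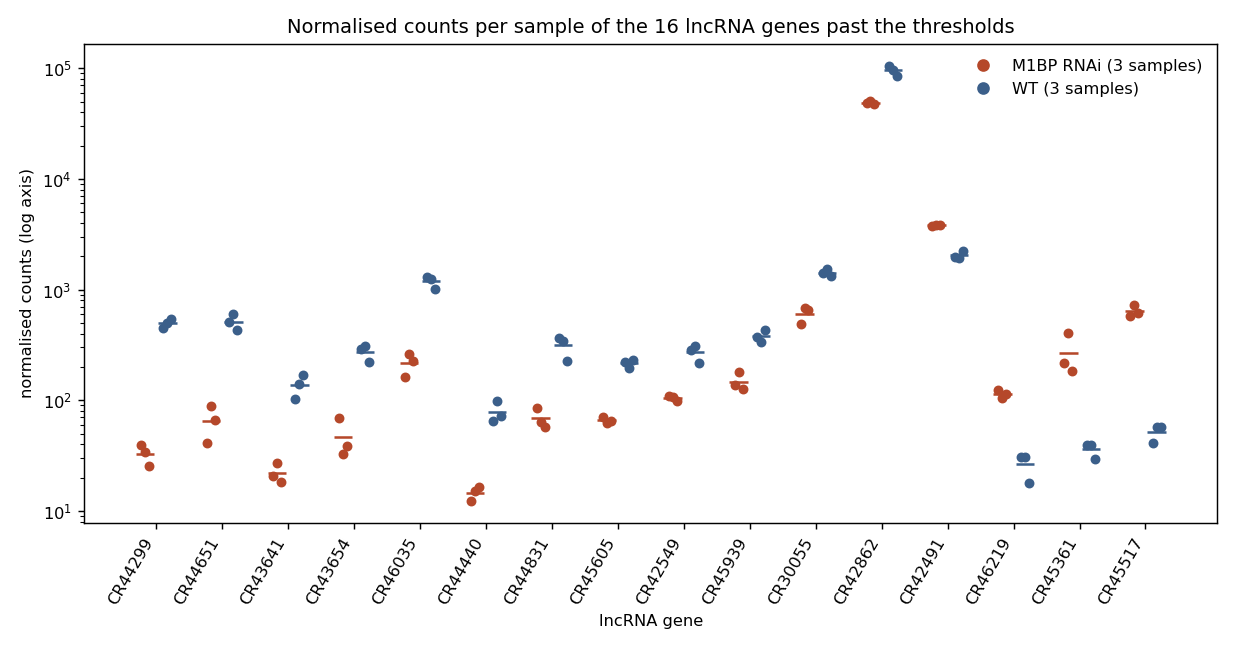
Normalised counts (log axis) of the 16 differentially expressed lncRNA genes, ordered by log2 fold change; each point is 1 sample, with 3 M1BP RNAi samples left of 3 WT samples, and bars are group means. The groups do not overlap for any of the 16 genes, which run from CR44299 at a log2 fold change of −3.94 to CR45517 at 3.60.

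The largest fall was that of CR44299 (FBgn0265345, chromosome 2R from 10782895 to 10785597, plus strand). It had 39.2, 34.0 and 25.7 normalised counts in M1BP RNAi, against 447, 504 and 539.9 in WT, and was 15.3-fold lower in M1BP RNAi (log2 fold change −3.94, standard error 0.18, adjusted p = 7.87e-06). The gene lies within CG33144, a protein-coding gene on the other strand, without touching its exons. CG33144 did not fall with it, at 386 ± 10.9 normalised counts in M1BP RNAi against 274 ± 14.1 in WT (SD, n = 3 each, log2 fold change 0.50, adjusted p = 0.00485). The nearest protein-coding gene by start, mthl13, had 2 counts in all 6 samples together.

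In 4 further falls the nearest protein-coding gene fell as well. CR44651 (FBgn0265862, chromosome 2R from 20531867 to 20532969, plus strand) had 41.2, 89.1 and 66.6 normalised counts in M1BP RNAi and 512, 597 and 433 in WT (log2 fold change −2.96, standard error 0.27, adjusted p = 9.70e-05). CG30154, which lies 390 bases away on the same strand, averaged 43.9 ± 12.4 normalised counts in M1BP RNAi and 191 ± 39.5 in WT (SD, n = 3 each, log2 fold change −2.10, adjusted p = 3.93e-04). Both genes of this pair were low in each M1BP RNAi sample. CR43641 (FBgn0263650, chromosome 3R from 13815279 to 13815778, plus strand) had 20.6, 27.0 and 18.3 normalised counts in M1BP RNAi and 103, 141 and 169 in WT (log2 fold change −2.66, standard error 0.25, adjusted p = 1.34e-04). Its neighbour tal-1A, 631 bases away, belongs to the tarsal-less locus, whose single transcript encodes several very short peptides that act in leg and epidermal development. tal-1A averaged 365 ± 47.1 normalised counts in M1BP RNAi and 1422 ± 235 in WT (SD, n = 3 each, log2 fold change −1.96, adjusted p = 7.26e-05).

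CR43654 (FBgn0263663, chromosome 3R from 22777567 to 22781465, minus strand) had 69.1, 33.0 and 38.5 normalised counts in M1BP RNAi, against 289, 312 and 220.3 in WT (log2 fold change −2.55, standard error 0.29, adjusted p = 2.69e-04). CG43095, 5797 bases away on the same strand, averaged 11.6 ± 3.40 normalised counts in M1BP RNAi and 46.9 ± 0.885 in WT (SD, n = 3 each, log2 fold change −2.01, adjusted p = 6.51e-04). Again neither gene had an M1BP RNAi sample as high as a WT sample. CR44440 (FBgn0265633, chromosome 4 from 44774 to 46074, plus strand) had 12.4, 15.0 and 16.5 normalised counts in M1BP RNAi and 65.04, 99.6 and 71.9 in WT (log2 fold change −2.41, standard error 0.26, adjusted p = 2.22e-04). It stands tail to tail with ci, which encodes the transcription factor of the Hedgehog pathway. ci averaged 642 ± 69.1 normalised counts in M1BP RNAi and 1899 ± 65.5 in WT (SD, n = 3 each, log2 fold change −1.56, adjusted p = 5.73e-05). PlexB, on the other side of CR44440, had a log2 fold change of −0.21 that did not pass the test (adjusted p = 0.143).

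CR46035 (FBgn0267702, chromosome 3R from 17703695 to 17705581, plus strand) lies within osa, on the other strand and outside its exons. osa encodes a subunit of the Brahma chromatin remodelling complex. CR46035 had 164, 260.4 and 228 normalised counts in M1BP RNAi, against 1294, 1257 and 1003 in WT, and was 5.44-fold lower in M1BP RNAi (log2 fold change −2.44, standard error 0.20, adjusted p = 5.87e-05). A second lncRNA gene within osa, CR46036, had 14.4, 24.03 and 17.7 normalised counts in M1BP RNAi and 54.8, 57.1 and 46.3 in WT, and missed the threshold (log2 fold change −1.48, adjusted p = 0.00221). osa fell too, to 646 ± 72.6 normalised counts in M1BP RNAi against 1214 ± 20.7 in WT (SD, n = 3 each, log2 fold change −0.91, adjusted p = 5.74e-04). By start position the nearest protein-coding gene to CR46035 is Pxt, which was not tested, since 51 of its 58 counts were in M1BP RNAi sample 1, the sample with the ovary markers.

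CR44831 (FBgn0266094, chromosome X from 14952345 to 14953697, minus strand) had 85.5, 63.1 and 57.5 normalised counts in M1BP RNAi and 366, 346 and 228 in WT (log2 fold change −2.19, standard error 0.24, adjusted p = 2.30e-04). It shares 20 of its 1353 counted bases with pdgy, whose own log2 fold change was 0.05. CR45605 (FBgn0267165, chromosome X from 18120546 to 18121467, minus strand) overlaps no gene and had 71.1, 62.1 and 64.8 normalised counts in M1BP RNAi, against 221, 198 and 233 in WT (log2 fold change −1.72, standard error 0.14, adjusted p = 6.59e-05). By start, the nearest protein-coding genes of these last 2, CG9030 and CG43133, had 0 and 3 counts in all samples together, too few to set beside them. With the distance measured between gene bodies, the log2 ratio described below changed by −2.18 for CR44831 against pdgy (limma, adjusted p = 5.56e-04). For CR45605 against wupA it changed by −1.93 (limma, adjusted p = 5.91e-04). wupA itself had a log2 fold change of 0.25 (edgeR, adjusted p = 0.172).

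CR42549 and CR45939 share exons with protein-coding genes that fell as well. CR42549 (FBgn0260722, chromosome 3R from 9548104 to 9551806, minus strand) had 108, 108 and 99.0 normalised counts in M1BP RNAi and 286, 311 and 218 in WT (log2 fold change −1.37, standard error 0.16, adjusted p = 3.65e-04). It shares 97 of 1968 bases with mura, which showed a log2 fold change of −1.57 (adjusted p = 2.22e-04). On its other side, the start of RnpS1, a gene for a splicing factor, faces it at 228 bases, and RnpS1 averaged 33.4 ± 4.96 normalised counts in M1BP RNAi and 7.39 ± 3.71 in WT (SD, n = 3 each, log2 fold change 2.09, adjusted p = 0.00243, which did not pass). CR45939 (FBgn0267601, chromosome 3L from 18772086 to 18801312, minus strand) had 137, 179 and 127 normalised counts in M1BP RNAi, against 369.7, 336 and 427 in WT (log2 fold change −1.36, standard error 0.17, adjusted p = 4.42e-04). Of its 2803 bases 2521 are also exons of ftz-f1, which encodes a nuclear receptor and showed a log2 fold change of −1.30 (adjusted p = 2.22e-04), so its counts cannot be told apart from those of ftz-f1.

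CR30055 was the smallest fall beside that of CR42862. This gene (FBgn0050055, chromosome 2R from 12589239 to 12591395, plus strand) had 484, 679 and 656 normalised counts in M1BP RNAi, against 1400.1, 1546 and 1325 in WT (log2 fold change −1.23, standard error 0.16, adjusted p = 4.78e-04). All M1BP RNAi samples were below all WT samples. Its nearest protein-coding gene, Amph, which encodes the membrane-shaping protein amphiphysin of the muscle T-tubules, had a log2 fold change of −0.17 that did not pass the test (adjusted p = 0.341).

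The largest rise was that of CR45517 (FBgn0267073, chromosome X from 5428483 to 5429256, plus strand), which overlaps no gene. It had 578, 723 and 613 normalised counts in M1BP RNAi, against 41.1, 57.1 and 57.7 in WT, and was 12.1-fold higher in M1BP RNAi (log2 fold change 3.60, standard error 0.17, adjusted p = 8.22e-06). CG16756, 266 bases away on the same strand, averaged 15.2 ± 9.16 normalised counts in M1BP RNAi and 34.6 ± 5.37 in WT (SD, n = 3 each, log2 fold change −1.23, adjusted p = 0.0354). The lncRNA gene and its neighbour thus had log2 fold changes of opposite sign.

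CR45361 (FBgn0266901, chromosome 2L from 20484399 to 20487548, plus strand) had 215, 402 and 185 normalised counts in M1BP RNAi and 39.4, 39.8 and 29.3 in WT (log2 fold change 2.90, standard error 0.34, adjusted p = 3.38e-04). Its nearest protein-coding gene, CG34007, had a log2 fold change of 1.48 that missed the threshold (adjusted p = 0.00277). CR46219 (FBgn0267939, chromosome 3R from 30715125 to 30716848, plus strand) had 123, 105 and 113 normalised counts in M1BP RNAi, against 30.8, 30.5 and 17.97 in WT (log2 fold change 2.13, standard error 0.24, adjusted p = 2.58e-04). Both genes were higher in each M1BP RNAi sample than in any WT sample.

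CR42491 rose together with RpL22, a gene for a protein of the large ribosomal subunit. CR42491 had 3770, 3866 and 3843 normalised counts in M1BP RNAi and 1972, 1931 and 2253 in WT (log2 fold change 0.90, standard error 0.12, adjusted p = 5.10e-04). RpL22 averaged 4161 ± 132 normalised counts in M1BP RNAi and 2169 ± 161 in WT (SD, n = 3 each, log2 fold change 0.94, adjusted p = 4.01e-04). Since 377 of the 747 bases of CR42491 are also exons of RpL22, the pair of values is not independent. CR44965 lies on the other strand, 60 bases from RpL22, and had 23.7, 16.02 and 12.8 normalised counts in M1BP RNAi against 37.7, 33.2 and 22.7 in WT, groups that overlap (log2 fold change −0.83, adjusted p = 0.0689).

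CR40469 (FBgn0058469, chromosome X from 122493 to 122706, plus strand), which just missed the threshold, had 782, 419.6 and 321 normalised counts in M1BP RNAi and 95.9, 85.0 and 124 in WT. Its log2 fold change of 2.30 (standard error 0.35) was larger than that of CR42491, with an adjusted p of 0.00105.

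With the 6 samples left out one by one, 6 of these 16 genes passed the same test in all 6 fits, namely CR44299, CR44651, CR43641, CR46035, CR45605 and CR45517. The other 10 kept their direction in every fit, with adjusted p values that rose above 0.001 in some. CR42862, CR42491, CR42549 and CR46219 passed only without WT sample 3, at up to 0.00476, 0.00364, 0.00254 and 0.0015. CR43654 and CR44831 passed only without M1BP RNAi sample 1 or WT sample 3, at up to 0.00192 and 0.00181. CR45361 was lost without any of the WT samples, at up to 0.00226, and CR44440 without any of the M1BP RNAi samples, at up to 0.00155. CR45939 passed only without M1BP RNAi sample 2, at up to 0.0024, and CR30055 only without M1BP RNAi sample 1, at up to 0.00251. Of the 91 lncRNA genes, 7 (7.69%) passed without WT sample 1 or 2, beside 6.33% and 7.56% of all genes. Without M1BP RNAi sample 2 or 3, 8 (8.79%) passed, beside 7.22% and 7.31%. Without M1BP RNAi sample 1 or WT sample 3, 14 (15.4%) passed, beside 13.6% and 12.1%. The shares of lncRNA genes thus stayed near those of all genes in these fits.

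Over all 91 genes the log2 fold changes had a median of −0.55 and ran from −3.94 to 3.60, with 63 below 0 and 28 above. All genes tested had a median of 0.02, with 4528 of 9276 below 0. Scaling by total library size alone moved the median of all genes to 0.77 and turned that of the lncRNA genes to 0.18, with 34 of 91 below 0. The direction thus depends on whether scaling factors are used. With RLE factors in place of TMM the median of the lncRNA genes was −0.57, and with the mitochondrial genome left out it was −0.58. The lncRNA genes lay 0.58 below all genes with TMM factors and 0.59 below with total library size. This shift stands beside the lower share of mitochondrial counts in the M1BP RNAi samples. It also stands beside their sums of fat body, blood cell, nerve and trachea markers, lower with TMM factors but not with total library size. The part of these in the shift was not tested. A minimum in every sample also leaves out genes that are nearly silent in 1 group. It was set on raw counts, and 3 raw counts equalled 1.83 to 3.09 normalised counts in M1BP RNAi and 2.84 to 5.13 in WT. The minimum was thus mostly higher in WT, which can leave out genes low in WT more than genes low in M1BP RNAi. Its part in the shift of the lncRNA median was not tested. Over all 146 lncRNA genes that could be tested, 13 (8.90%) were higher and 15 (10.3%) lower, beside 11.0% and 6.58% of all genes tested. Their median log2 fold change was −0.41.

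**Figure D2:**
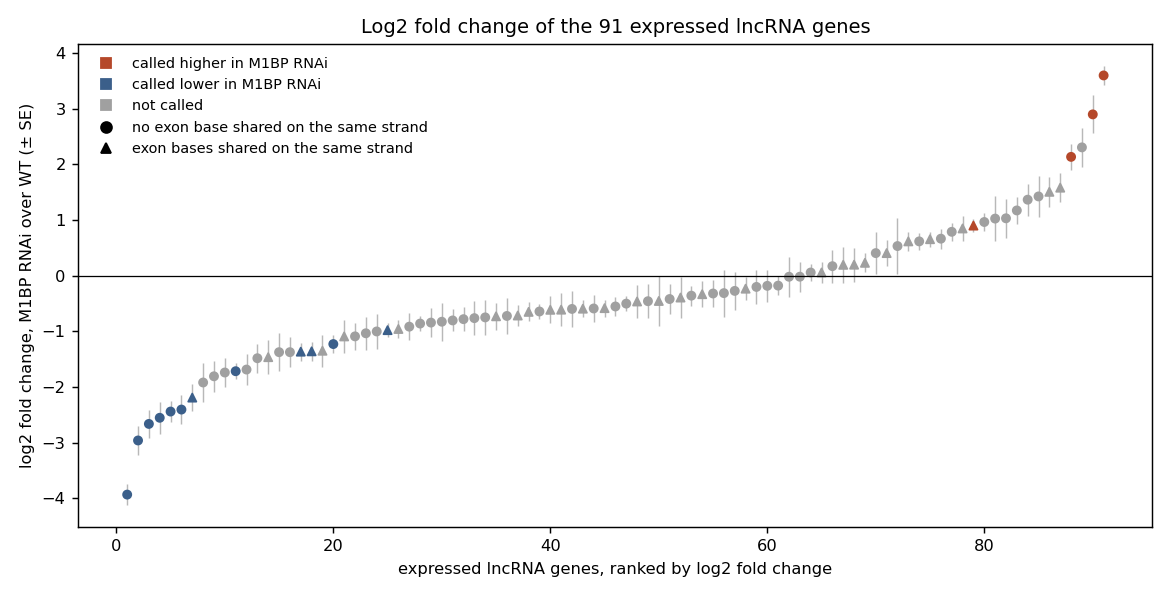
Log2 fold change (M1BP RNAi over WT, with the standard error as bars) of the 91 expressed lncRNA genes, ranked; colours mark the 4 called higher, the 12 called lower and the rest, and triangles mark the 31 genes that share exon bases with another gene on the same strand. The ranked values cross 0 after 63 genes.

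The lncRNA genes with names of their own were Hsromega, CRG and noe. Hsromega (FBgn0001234, chromosome 3R from 21296127 to 21317836, plus strand), the stress-induced RNA that organises the omega speckles of the nucleus, had 3031, 3027 and 3345 normalised counts in M1BP RNAi, against 4947, 5385 and 4372 in WT. The groups did not overlap, but the log2 fold change of −0.64 with a standard error of 0.13 (adjusted p = 0.00367) did not pass. CRG (FBgn0266181, chromosome 3R from 21783540 to 21786208, minus strand) had 168, 258 and 216 normalised counts in M1BP RNAi and 341, 419 and 298 in WT (log2 fold change −0.72, adjusted p = 0.0149). All 2669 bases of CRG are also exons of CASK, a gene for a synaptic scaffold kinase whose log2 fold change was −0.52 (adjusted p = 0.0195), so the CRG count holds no base of its own. noe (FBgn0026197, chromosome 3L from 17400272 to 17401348, minus strand) had 26.8, 29.0 and 38.5 normalised counts in M1BP RNAi, against 37.7, 38.5 and 42.6 in WT, groups that overlap (log2 fold change −0.32, adjusted p = 0.274).

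The roX RNAs of dosage compensation, which are made in males, were not among the 91 genes. roX1 had 17, 9 and 13 raw counts in M1BP RNAi and 24, 20 and 28 in WT, just outside the minimum (log2 fold change −1.46, adjusted p = 0.0138). roX2 had 0 counts in all 6 samples. let7C, the host of a microRNA cluster, was also just outside, with 12, 21 and 16 raw counts in M1BP RNAi and 9, 15 and 15 in WT. In all, 7 lncRNA genes had a lowest count of 9 and 6 had a lowest count of 10, such as CR44832 with 12, 10 and 19 raw counts in M1BP RNAi and 10, 12 and 10 in WT.

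The position of the genes was taken from the exons in the count table. Of the 91 lncRNA genes, 31 share exon bases with another gene on the same strand, 5 lie within or across a gene of that strand without a shared exon, 20 overlap only a gene of the other strand and 35 overlap no gene. Genes wholly inside exons of another gene still had counts, so reads over shared exons were counted for both. Of the 31, 5 (16.1%) were differentially expressed, 1 higher and 4 lower, beside 17.5% of all genes tested, 11.0% higher and 6.58% lower. Of the 20, 5 (25.0%) were, 1 higher and 4 lower. Of the 35, 6 (17.1%) were, 2 higher and 4 lower, while none of the 5 was. The median log2 fold change was −0.47 for the 31 and −0.57 for the 60 that share no exon base, so the lower median was not confined to genes with shared exons.

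Where at least 50% of the bases were shared, the lncRNA value followed that of the other gene, and less closely where fewer were. For the 15 lncRNA genes with at least 50% of their bases shared, the log2 fold changes of both genes had the same sign in 15 pairs and differed by a median of 0.07. For the 16 with less, the sign was the same in 12 and the median difference was 0.19. CR44999, of whose bases 91.8% are exons of Myc, the gene for a growth-promoting transcription factor, showed a log2 fold change of 1.58 (adjusted p = 0.00159) beside 1.5 for Myc (adjusted p = 0.00127). CR45197 lies wholly in exons of sgg, the fly glycogen synthase kinase, with −0.59 beside −0.52, CR45204 in exons of Imp, an mRNA-binding protein gene, with 0.06 beside 0.15, and CR44097 in exons of CG6000, with 0.65 beside 0.65. A result for any of these genes is therefore also one for its partner.

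Each lncRNA gene was then set against its nearest protein-coding gene, found by chromosome and start. The starts were a median of 2170 bases apart and 50297 at most, and 89 different genes served as neighbours of the 91. Of these 89 genes 71 could be tested, and 13 (18.3%) were differentially expressed, beside the 17.5% of all genes tested. In M1BP RNAi 2 (2.82%) were higher and 11 (15.5%) lower, beside 11.0% and 6.58% of all genes tested. The 71 genes form 73 pairs with lncRNA genes. The log2 fold changes of the pair had the same sign in 49 of 73, both below 0 in 36 and both above in 13. Among 51 pairs without a shared exon base the sign was the same in 30 (58.8%), beside 54.9% of 5672 such pairs in which a protein-coding gene took the place of the lncRNA gene. Across those pairs Pearson's r was 0.36 for lncRNA genes and 0.11 for protein-coding genes, and 0.69 across the 22 lncRNA pairs with shared exon bases. These are descriptions across genes, which come from the same 6 libraries and are not independent replicates.

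**Figure D3:**
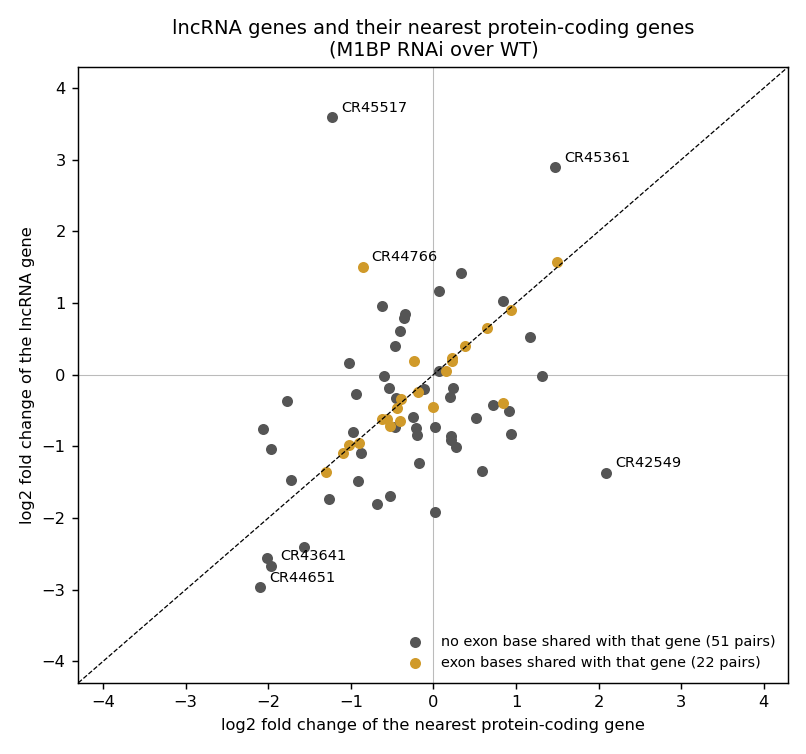
Log2 fold change (M1BP RNAi over WT) of 73 lncRNA genes on the vertical axis and of their nearest protein-coding genes on the horizontal axis; each point is a pair, and the dashed line marks equal values. The 2 genes of a pair differ by a median of 0.05 for the 22 pairs with shared exon bases and of 0.93 for the 51 other pairs. Most of the 22 lie near the line, with exceptions such as CR44766.

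Of the 16 differentially expressed lncRNA genes, 11 had a tested neighbour, and in 6 the neighbour was differentially expressed too, in the same direction each time. These were the pairs with CG30154, tal-1A, CG43095, ci, ftz-f1 and RpL22, and the last 2 share exons. For 1204 differentially expressed protein-coding genes with a tested neighbour, the neighbour was differentially expressed for 26.1%, and in the same direction in 225 of those 314 pairs. By strand, 10 of the 25 lncRNA genes that stand apart from their neighbour on the same strand were differentially expressed (2 higher, 8 lower). Of those that stand head to head 2 of 18 were, of those tail to tail 1 of 16, and of those that overlap the neighbour 3 of 32. Among all genes tested, whatever their strand, the share was 17.5%, 11.0% higher and 6.58% lower. Whether these shares differ was not tested.

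Whether an lncRNA gene moved differently from its neighbour was tested on the log2 ratio of their counts, with limma over 7605 pairs of a gene and its nearest protein-coding gene. At an adjusted p of at most 0.001, 3 of 77 lncRNA genes differed from their neighbour, beside 8.17% of all pairs. At an unadjusted p under 0.05, 37 of the 77 did, beside 54.5% of all pairs. CR45517 gained 4.78 (standard error 0.44) on the log2 scale over CG16756 (adjusted p = 6.83e-04). CR40469 gained 3.31 (standard error 0.33) over CG17636 (adjusted p = 8.67e-04), a gene with 18 counts in all samples together. CR44766, which has 154 of 672 bases in exons of ras, gained 2.28 (standard error 0.16) over ras (adjusted p = 3.65e-04).

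CR44766 (FBgn0265987, chromosome X from 10744508 to 10745250, plus strand) had 55.7, 72.1 and 94.7 normalised counts in M1BP RNAi and 29.1, 21.2 and 28.4 in WT, and its own change did not pass the test (log2 fold change 1.5, adjusted p = 0.00239). ras, which encodes the enzyme that makes the precursor of guanine nucleotides, averaged 986 ± 160.4 normalised counts in M1BP RNAi and 1787 ± 157 in WT (SD, n = 3 each, log2 fold change −0.86, adjusted p = 0.00238). The genes thus had opposite signs although they share exon bases. CR44766 also overlaps stx on the other strand over 54.3% of its bases, and stx showed a log2 fold change of 0.61 (adjusted p = 0.0202). Without M1BP RNAi sample 1, CR45517 alone of the lncRNA genes passed this ratio test, and without any other sample 0 did. The share of all pairs that passed in these fits is not given here, so the loss cannot be read as particular to lncRNA genes. CR44299 was not among the 77, since mthl13 had too few counts. With the distance measured between gene bodies it lost 4.34 against CG33144 (adjusted p = 1.41e-04).

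The lncRNA genes were lastly grouped by chromosome. Of 25 on X, 13 had a log2 fold change above 0 and the median was 0.06, beside 795 of 1504 tested genes of X above 0 and a median of 0.07. Of the 66 on other chromosomes, 15 were above 0 and the median was −0.61, beside 3953 of 7772 tested genes and a median of 0.02. Chromosome 2R had 1 of 15 above 0 and a median of −1.09, and 3L had 2 of 13 and −0.61. On chromosome 4 all 3 were below 0, with a median of −1.04, and there the 83 tested genes also had a low median, −0.71. Among genes that share no exon base, 7 of 16 on X and 10 of 44 elsewhere were above 0. Differentially expressed were 4 of 25 on X, 2 in each direction, beside 14.8% of all genes of X, 8.84% higher and 5.92% lower. Elsewhere 12 of 66 were, 2 higher and 10 lower, beside 18.1% of all genes, 11.4% higher and 6.7% lower. These counts use TMM factors, their difference was not tested, and signs turn with the scaling as given above.

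**Figure D4:**
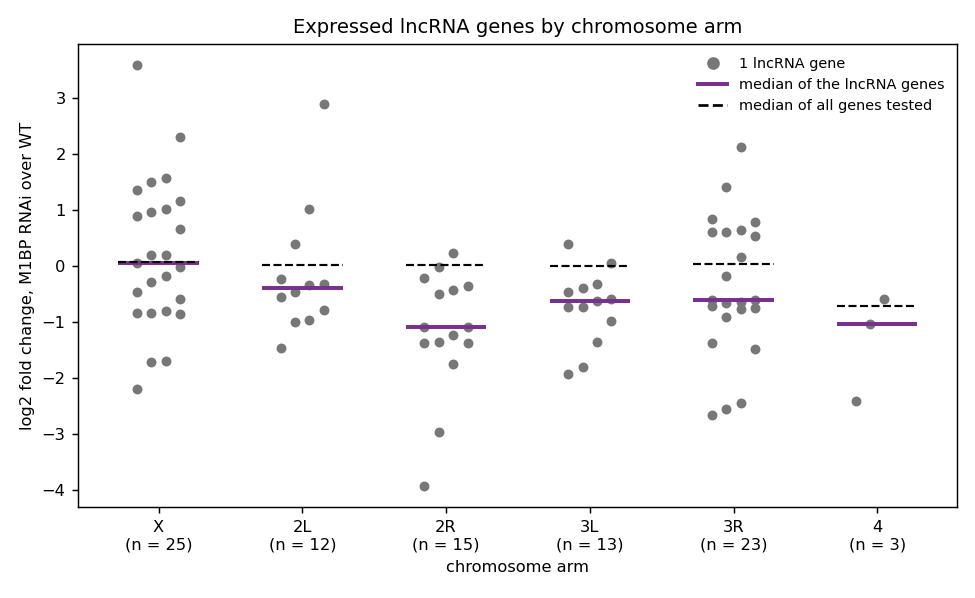
Log2 fold change (M1BP RNAi over WT) of each of the 91 expressed lncRNA genes by chromosome arm, with the median of the lncRNA genes (solid line) and of all genes tested on that arm (dashed line). The 2 medians lie together on X, at 0.06 and 0.07, and apart on 2R, at −1.09 and 0.02.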

How the data were processed

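PolyA RNA of indirect flight muscles was sequenced from 3 M1BP RNAi and 3 WT samples. The authors deposited raw counts of uniquely mapped reads per gene over exons. The submitters' processing notes name bcl2fastq 2.17.1.14, Subread, featureCounts and dm6. Whether the counting used strand is not given in the sources used here. For 6 genes that lie on the strand opposite a strongly counted gene, counts per base were at most 0.0014 times those of that gene. A second table holds the authors' DESeq2 comparison of both groups: a mean score of scaled counts, log2 fold changes with their errors, and p-values, as deposited. Only its gene symbols were used, and the authors' fold changes and p-values were not. No per-sample column was left unused. The study states that its libraries came from triplicate RNA preparations. For its experiments in general it states 3 independent biological replicates, unless a legend says otherwise. Separate crosses are not stated, so p-values measure the spread between these preparations.

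Counts were tested with edgeR 4.0.16 in R 4.3.3 (filterByExpr, TMM factors, quasi-likelihood test), with Benjamini-Hochberg adjustment over 9276 genes. Ratios of a gene to its neighbour were tested with limma 3.58.1 on the difference of log2 CPM values (prior count 2), for pairs with at least 10 counts in each gene. DESeq2 1.42.0, other scalings, filters and thresholds, a replicate block and leaving out each sample were alternatives. The scripts were tested on simulated data. Standard errors are the log2 fold change over the root of the F statistic. Positions are those of the count table, on dm6.

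The named genes were the 10 largest falls and rises among differentially expressed lncRNA genes, the 5 with the most counts per kilobase, those with a name of their own, their nearest protein-coding genes, and genes next to the count minimum. CR30055, CR40469, CR44766, CR44965, CR44999, CR45197, CR45204, CR44097 and CR46036 were chosen after their values were seen, as were the genes that overlap or flank them. The genes and lists were chosen with earlier results of these data known. With 3 samples a group, an exact permutation test of a single gene cannot go below p = 0.1. Floors of 3 counts cover counting error only.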

Additional observations from a re-analysis of the deposited data

How the results depend on the processing

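Of 91 lncRNA genes, 16 were differentially expressed, 4 higher and 12 lower in M1BP RNAi. DESeq2's Wald test gave 33 (12 higher, 21 lower, beside 27.0% of its 10895 genes), an adjusted p of at most 0.05 gave 55 (18 higher, 37 lower, beside 47.1% of all genes), and a mean count of at least 10 in place of 10 in every sample gave 28 of 144 genes (13 higher, 15 lower, beside 17.5% of all genes). Total library size gave 14 higher and 5 lower, beside 29.2% of all genes. Leaving out each sample gave 7 to 14 genes, 1 to 5 higher and 5 to 11 lower, beside 6.33% to 13.6% of all genes. The replicate numbers did not pair the samples, since deviations of same-numbered samples correlated at 0.05, 0.179 and −0.015. With a replicate block 10 genes passed (2 higher, 8 lower), beside 8.52% of all genes. In limma with the block, 0 of 77 ratios of an lncRNA gene to its neighbour passed, and 0 of all 7605 pairs. At an unadjusted p under 0.05, 38 of the 77 did, beside 51.6% of all pairs. The median log2 fold change of −0.55 became 0.18 with total library size and ran from −0.56 to −0.51 with a sample left out. With total library size the log2 fold changes of CR31781 (0.18), CR44417 (0.25), CRG (0.0249), Hsromega (0.11) and noe (0.42) also changed sign. Ratios to the neighbour were called for 3 lncRNA genes, for 9 of 85 with the distance between gene bodies (8.78% of all pairs) and for 4 of 91 with the nearest expressed gene (10.6% of all pairs). They were called for 0 with the block, as for all pairs. With a sample left out they were called for 0 to 1, and the share of all pairs is not given here. M1BP had a log2 fold change of −0.61 with total library size and of −1.35 with the block, neither past the threshold, and of −1.42 to −1.24 with a sample left out. Of 264 alternative values for 22 named genes, 200 kept direction and call, 57 lost the call, 2 gained it and 5 changed sign. The causes were not tested, other than fewer samples for the samples left out.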

Other observations

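Of the lncRNA genes outside the minimum, 55 could be tested, and 9 were higher and 3 lower in M1BP RNAi at the same thresholds (edgeR), 21.8% beside 17.5% of all genes tested. Genes almost silent in 1 group entered the test only through the group where they were high, so this count is a description, and the genes below were named for their change. CR46253 had 583, 959 and 1575 raw counts in M1BP RNAi, against 12, 9 and 8 in WT (log2 fold change 6.07). CR44138 had 158, 160 and 165 raw counts in M1BP RNAi and 0, 1 and 4 in WT. CR46123 had 20, 35 and 48 raw counts in M1BP RNAi and 0 in each WT sample, which makes it at least 22.8-fold higher against a floor of 3 counts over the WT group. By the same floor CR46350, with 22, 20 and 33 raw counts in M1BP RNAi and 0 in each WT sample, was at least 16.6-fold higher. CR43974 went the other way, with 2, 2 and 5 raw counts in M1BP RNAi and 40, 38 and 35 in WT (log2 fold change −4.27).

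The lncRNA gene of the alphagamma-element, CR32865, lies at a heat shock locus. It had 54, 56 and 91 raw counts in M1BP RNAi, against 4, 7 and 5 in WT (log2 fold change 3.02). Its nearest protein-coding gene, Hsp70Ba, a heat-inducible chaperone gene, averaged 178 ± 22.1 normalised counts in M1BP RNAi and 20.4 ± 9.70 in WT (SD, n = 3 each, log2 fold change 3.18). Both were thus higher in M1BP RNAi. Whether reads of the Hsp70 gene copies and of the element were kept apart was not tested. The snoRNA host genes of the Uhg family are noncoding as well but carry no lncRNA prefix, and 7 of them were tested. Their log2 fold changes lay between −0.01 and 1.32, with a median of 0.69. That of Uhg1 was 1.22 and did not pass (adjusted p = 0.00211).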
